A study of Homo sapiens with 6 samples.

Results

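The 5 NF-kB subunit genes (NFKB1, NFKB2, REL, RELA and RELB) and 5 genes of inhibitors and IkB-like regulators that NF-kB itself can induce (NFKBIA, NFKBIE, NFKBIZ, TNFAIP3 and BCL3) were followed in FUJIOKA, a human acute myeloid leukaemia cell line, after silencing of SPINK2, a protease inhibitor of the Kazal family. They were taken by gene symbol from the deposited table of 63236 genes, in which each of the 10 has 1 row. The 3 shNEG libraries came from FUJIOKA cells carrying a scrambled shRNA and the 3 shSPINK2 libraries from cells carrying an shRNA against SPINK2. Cells of both groups were stably transduced with the lentiviral Tet-pLKO-puro vector, were resistant to puromycin and received doxycycline, at 1 µg/µl in the labels, which switches the shRNA on. The labels name 2 SPINK2 shRNAs and the methods name only the first, and which library carries which is not given in the sources used here, nor is how long cells had been on doxycycline when RNA was harvested. All libraries derive from 1 cell line, and no source says whether the 3 libraries of a group came from separate cultures, so p-values measure the spread between these libraries, which may be technical.

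The table holds 1 mean per gene over the 6 libraries, and the reads of each library were recovered from it as whole numbers. The recovered libraries carry their group but no replicate number, and they are called a, b and c within each group, in order of falling size factor. They held 20885623 to 21785480 recovered reads each, and 15357 genes with a mean of at least 10 were tested. SPINK2 counted 56, 63 and 53 reads in shNEG against 7, 9 and 6 after silencing. It fell by 2.83 on the log2 scale (SE 0.26, adjusted p = 4.26e-12), so the targeted gene went the way of the labels. In bulk RNA, fewer cells of a type and less RNA per cell cannot be told apart. Of 8 myeloid markers 7 had a mean of at least 10, with KIT near 0, whereas the 3 T cell markers and 3 erythroid markers were all under 10. CD79A, a B cell marker, and KRT8, among the 4 epithelial ones, were above 10, and MS4A1, EPCAM, KRT18 and CDH1 were at or near 0. CD79A moved with the groups, from 143, 151 and 146 reads to 201, 214 and 251. Its part in the results was not tested.

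NF-kB is a family of dimers that wait in the cytoplasm in the grip of IkB proteins. In the canonical route the IKK complex marks IkB for destruction and frees dimers of p65 (RELA) or c-Rel (REL) with p50, which is cut from the NFKB1 product, whereas in the non-canonical route the kinase NIK leads to processing of the NFKB2 product to p52, the usual partner of RELB. Freed dimers switch on cytokine, adhesion and survival genes together with their own brakes, among them the IkB alpha gene NFKBIA and TNFAIP3, and in myeloid cells the pathway drives the response to microbial products and tumour necrosis factor.

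Of the 10 genes, 6 were higher in shSPINK2 (NFKB2, REL, RELA, RELB, TNFAIP3 and BCL3), 1 was lower (NFKB1) and 3 did not pass the test (NFKBIA, NFKBIE and NFKBIZ). All 10 were tested, and none changed by more than 1 on the log2 scale. Over all genes tested, 28.2% were called higher and 29.5% lower (57.7% in all) at an adjusted p under 0.05, and 4.75% were called with a change over 1. Among the 11820 genes with a mean of at least 50, a level that all 10 genes exceed, 32.4% were called higher and 35.0% lower, so 7 calls in 10 genes stood near the 67.3% of genes called at that level. The median log2 fold change was 0.17 over the 10 genes and 0.00052 over all genes tested. The median absolute log2 fold change was 0.27 over all genes tested and 0.39 over all genes called. The groups did not overlap in 6 of the 10 genes in the higher direction and in 1 in the lower direction, against 30.2% and 31.3% of all genes tested. The calls of NFKB1, RELA, NFKB2 and TNFAIP3 held in all 14 alternative settings, and those of REL, RELB and BCL3 did not, so that DESeq2, or the fit without shNEG library b, called 3 of the 10 genes higher. Of all 15357 genes tested, these fits called 3829 and 3944 higher, against 4329 in the main fit.

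**Figure D1:**
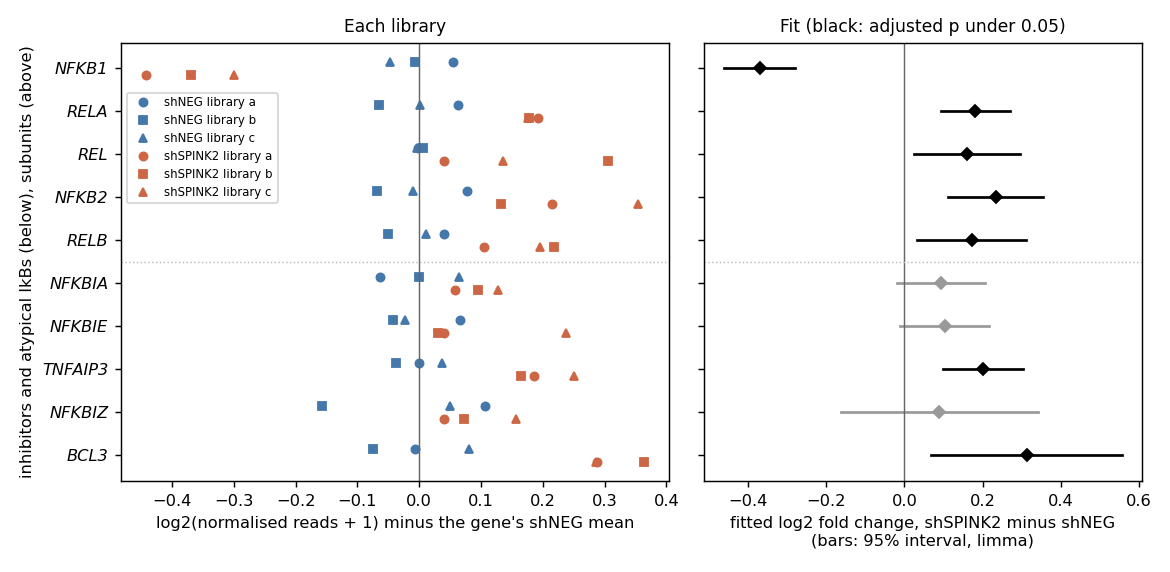
Left, log2(normalised reads + 1) of each of the 6 libraries minus the gene's shNEG mean, with shNEG in blue and shSPINK2 in orange. Right, the fitted log2 fold change with its 95% interval, black where the adjusted p was under 0.05; NFKB1 stands alone to the left of 0 at -0.37, and the other 9 genes lie between 0.090 and 0.31.

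NFKB1 (ENSG00000109320, chr4:102501330-102617302, plus strand, GRCh38) encodes p105, the precursor of p50, which binds DNA but has no transactivation domain. It had 4716, 4510 and 4377 reads in shNEG libraries a, b and c, and 3443, 3540 and 3624 in shSPINK2 libraries a, b and c. Every shSPINK2 library was below every shNEG library, by a gap wider than the range inside either group. Its mean fell from 4531 ± 162 to 3506 ± 173 normalised reads (SD, n = 3 each). The log2 fold change was -0.37 (SE 0.045, 95% interval -0.46 to -0.28, adjusted p = 5.40e-09), which is 22.6% lower. This was the largest change among the 10 genes in either direction, and 18.3% of all genes tested had a lower log2 fold change.

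RELA (ENSG00000173039, chr11:65653599-65663090, minus strand) encodes p65, the main activating subunit of the canonical dimer. It had 4094, 3742 and 3911 reads in shNEG against 4614, 4463 and 4353 in shSPINK2. All shSPINK2 libraries were higher than all shNEG libraries, and after scaling they lay close to each other. The mean rose from 3912 ± 171 to 4435 ± 26.9 normalised reads (SD, n = 3 each), a log2 fold change of 0.18 (SE 0.044, adjusted p = 5.06e-04) or 13.4%. The SD of 26.9 is below the 66.3 that counting error alone gives at this level, so it understates the error. NFKB1 and RELA, whose products form the commonest dimer, thus moved in opposite directions.

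REL (ENSG00000162924, chr2:60881491-60931612, plus strand) encodes c-Rel, the activating subunit best known from lymphoid cells. Its reads numbered 570, 572 and 567 in shNEG against 605, 710 and 616 in shSPINK2. The shSPINK2 libraries were all higher, with library b standing above a and c, while the shNEG libraries differed by less than counting error would give (SD 2.12 normalised reads, counting error 23.8). The log2 fold change was 0.16 (SE 0.067, adjusted p = 0.0398). The call was lost without shNEG library a, b or c (adjusted p = 0.0861, 0.0774 and 0.0919), without shSPINK2 library c (0.0553) and without shSPINK2 library b, where the log2 fold change was 0.088 (adjusted p = 0.262). DESeq2 on the same reads gave an adjusted p of 0.0742, and over the 14 alternative settings it ran from 0.00437 to 0.262.

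NFKB2 (ENSG00000077150, chr10:102394110-102402524, plus strand) encodes p100, which holds RELB in the cytoplasm until it is cut to p52. It had 919, 829 and 862 reads in shNEG against 1042, 961 and 1094 in shSPINK2. All shSPINK2 libraries were above all shNEG libraries. The mean went from 869 ± 44.3 to 1024 ± 80.2 normalised reads (SD, n = 3 each), a log2 fold change of 0.23 (SE 0.060, adjusted p = 9.92e-04) or 17.7%. This was the largest estimate among the subunits that rose.

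RELB (ENSG00000104856, chr19:45001461-45038192, plus strand), the activating partner of p52, had 464, 435 and 453 reads in shNEG against 500, 529 and 508 in shSPINK2. The groups did not overlap, and the gap between the highest shNEG and the lowest shSPINK2 library was about that of neighbours within a group. The log2 fold change was 0.17 (SE 0.069, adjusted p = 0.0304). As for REL the call was lost with DESeq2 (adjusted p = 0.0687), and also without shNEG library b or c (0.122 and 0.0660) or shSPINK2 library b or c (0.0755 and 0.0749). Over the 14 alternatives the adjusted p ran from 0.00333 to 0.122, while the log2 fold change stayed between 0.15 and 0.21 when any library was left out.

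NFKBIA (ENSG00000100906, chr14:35401079-35404749, minus strand) encodes IkB alpha, the inhibitor that NF-kB resynthesises within its own pulse of activity. Its reads numbered 895, 933 and 975 in shNEG against 1003, 1006 and 1005 in shSPINK2. After scaling, the lowest shSPINK2 library (970.8 normalised reads) lay below the highest shNEG library (976.1), so the groups overlapped. The log2 fold change was 0.093 (95% interval -0.020 to 0.21, adjusted p = 0.152). NFKBIE (ENSG00000146232, chr6:44258166-44265788, minus strand), the gene of IkB epsilon, likewise had overlapping groups, with 1256, 1162 and 1176 reads in shNEG against 1271, 1234 and 1390 in shSPINK2. Only shSPINK2 library c stood above the shNEG range, and the log2 fold change was 0.10 (95% interval -0.011 to 0.22, adjusted p = 0.118). Both genes passed the test under upper-quartile size factors (adjusted p = 0.0144 and 0.0108), a scaling that moved the median of all genes by 0.060 on the log2 scale, and NFKBIE also without shSPINK2 library b (adjusted p = 0.0334). Over the 14 alternatives the adjusted p ran from 0.0144 to 0.453 for NFKBIA and from 0.0108 to 0.626 for NFKBIE.

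TNFAIP3 (ENSG00000118503, chr6:137867214-137883314, plus strand) encodes the ubiquitin-editing protein that ends signalling from the tumour necrosis factor and Toll-like receptors. It had 1307, 1270 and 1336 reads in shNEG against 1532, 1475 and 1527 in shSPINK2. The 2 groups were well apart, and the spread in each was near counting error. The mean rose from 1303 ± 34.2 to 1498 ± 46.1 normalised reads (SD, n = 3 each), a log2 fold change of 0.20 (SE 0.051, adjusted p = 8.40e-04) or 14.9%. Of the 5 inhibitors it was the only one called under all 14 alternative settings. An antisense lncRNA, WAKMAR2, shares 95 exon bases with it at a mean of 182, and since strand use in counting is not given in the sources used here, reads from these bases cannot be assigned.

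BCL3 (ENSG00000069399, chr19:44747705-44760044, plus strand) and NFKBIZ (ENSG00000144802, chr3:101827991-101861022, plus strand) encode atypical nuclear IkB proteins that bind p50 or p52 on DNA and change which targets are switched on. BCL3 had 102, 97 and 108 reads in shNEG against 129, 133 and 123 in shSPINK2. The groups did not overlap, at a depth where counting error alone is about 10.1 normalised reads. Its log2 fold change of 0.31 (SE 0.12, adjusted p = 0.0257) was the largest rise among the 10 genes, with a wide 95% interval of 0.068 to 0.56, and DESeq2 gave an adjusted p of 0.0921. The call was also lost without shNEG library a or b (adjusted p = 0.0581 and 0.0874) or shSPINK2 library b (0.0715), and over the 14 alternatives the adjusted p ran from 0.00901 to 0.0921. NFKBIZ had 117, 97 and 112 reads in shNEG against 115, 115 and 119 in shSPINK2. The libraries were intermingled, and the log2 fold change was 0.090 (95% interval -0.16 to 0.34, adjusted p = 0.558), so the change of 0.23 seen in NFKB2 lies inside its interval. NFKBIZ shares 194 of its 5902 exon bases with NXPE3 on the same strand, which has a mean of 5272, so its low count is uncertain.

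An exact permutation test of 3 against 3 libraries cannot go below p = 0.1 (two-sided). In this exact test the 7 of the 10 genes that were called in the fit reached that value. NFKBIA, NFKBIE and NFKBIZ gave exact p-values of 0.2, 0.3 and 0.5. Groups that do not overlap reach 0.1 by design, so for these 7 genes the test restates the lack of overlap and adds no support. Over all genes tested, the groups did not overlap in 30.2% in the higher and 31.3% in the lower direction.

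Levels were compared between genes as normalised reads per kb of exon, in which RELA led with 717 ± 31.4 in shNEG (SD, n = 3). NFKBIE followed with 464 ± 18.9, then NFKB1 with 289 ± 10.3 and NFKBIA with 275 ± 12.3, whose shNEG libraries overlapped. TNFAIP3 stood at 202 ± 5.30, and NFKB2 (156 ± 7.93) and RELB (150 ± 4.76) overlapped below it. REL (33.2 ± 0.12) and BCL3 (33.1 ± 1.81) could not be ordered, and NFKBIZ was lowest with 18.4 ± 1.75. Thus the line expressed RELA far above REL, and the classical inhibitors far above the nuclear ones. In shSPINK2 NFKB1 dropped below NFKBIA and came close to TNFAIP3, with means of 224, 293 and 232 reads per kb. Exon lengths were those of all annotated transcripts merged, so a gene with long exons used little in these cells reads low on this scale. The merged length was 15679 bases for NFKB1 and 5457 for RELA. Before division by length NFKB1 stood above RELA in shNEG, with means of 4531 and 3912 normalised reads, so their order depends on these lengths. For REL, 33.3% of that length is shared with a lncRNA that had no mean above 0, being either at 0 or not listed.

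**Figure D2:**
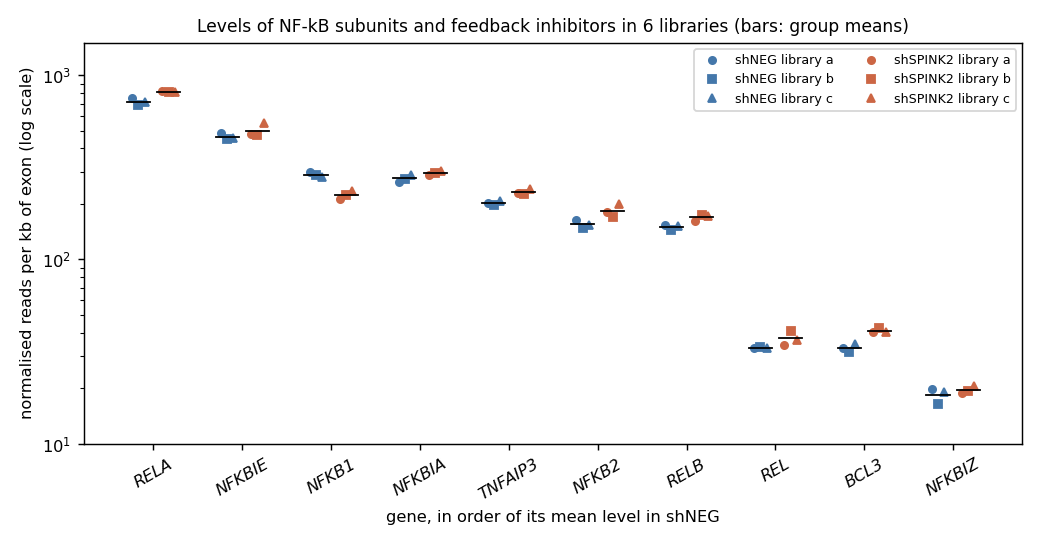
Normalised reads per kb of exon (log axis) of the 10 genes in each library, ordered by the shNEG mean, with shNEG in blue, shSPINK2 in orange and bars for the group means. RELA is highest in all libraries, NFKB1 is the only gene with all orange points below all blue ones, and REL, BCL3 and NFKBIZ form a low group under 50.

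Because the reads of a library share its depth, ratios between genes within a library do not rest on the scaling. The log2 ratio of NFKB1 to RELA, in reads per kb, was -1.32, -1.25 and -1.36 in shNEG and -1.95, -1.86 and -1.79 in shSPINK2. It was lower in every shSPINK2 library, by 0.55 in the mean. The log2 ratio of NFKB2 to NFKB1, the 2 precursor genes, was -0.87, -0.95 and -0.85 in shNEG and -0.23, -0.39 and -0.24 in shSPINK2. It was 0.60 higher in the mean, so NFKB2 came nearer to NFKB1 without reaching it. As a share of the summed reads per kb of the 10 genes, NFKB1 went from 12.4% ± 0.38 to 8.90% ± 0.22 and RELA from 30.7% ± 0.47 to 32.4% ± 1.11 (SD, n = 3 each).

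The non-canonical genes NFKB2 plus RELB, set against NFKB1, RELA and REL, also gave groups that did not overlap. This log2 ratio averaged -1.76 ± 0.013 in shNEG and -1.61 ± 0.055 in shSPINK2 (SD, n = 3 each), a difference of 0.16. NFKB1, which fell, is in the denominator of this ratio, and set against RELA alone RELB and REL overlapped between the groups, with differences of -0.0086 and -0.021. The inhibitors, in contrast, were set against RELA one by one. The log2 ratios to RELA of NFKBIA, NFKBIE, TNFAIP3 and NFKBIZ overlapped between the groups, with differences of -0.088, -0.079, 0.019 and -0.091. Of the inhibitors, BCL3 alone gave a ratio to RELA without overlap, 0.13 higher in shSPINK2. The groups nearly touched, at -4.36 in the highest shNEG and -4.34 in the lowest shSPINK2 library. With 97 to 133 BCL3 reads a library, counting error could close this gap. The 5 inhibitors summed over the 5 subunits had a log2 ratio of -0.44 ± 0.038 in shNEG and -0.40 ± 0.050 in shSPINK2, with overlapping libraries. No test was made on the ratios.

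**Figure D3:**
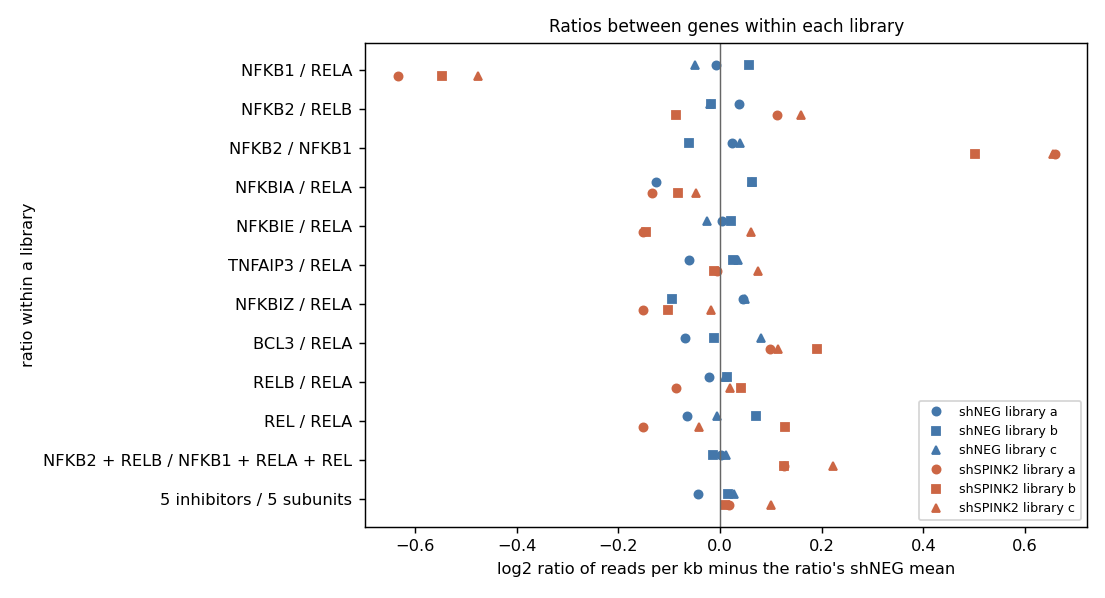
Log2 ratio of reads per kb within each library, minus the ratio's shNEG mean, for 12 ratios, with shNEG in blue and shSPINK2 in orange. NFKB1 / RELA lies to the left and NFKB2 / NFKB1 to the right of all shNEG points, by 0.55 and 0.60 in the mean, while for the inhibitors over RELA the orange and blue points overlap in all but BCL3.

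The promoters of these genes are known for sites that NF-kB itself binds. RefSeq promoter windows (GRCh38.p14, 250 bases before to 50 after a start) were at hand for 8 of the 10 genes, with none for RELB and NFKBIE. The 10-base kappaB consensus, searched on both strands, matched in at least 1 window of 7 of them (87.5%) and in none of RELA, against 17.0% of the 9666 tested genes with a window. Matches were in the gene that fell, in genes that rose and in genes that were not called. The windows below are shown for NFKB1, which was lower, TNFAIP3 and BCL3, which were higher, and NFKBIA, which was not called, with the matched bases in capitals, 5′ to 3′ on the gene's strand.
NFKB1, chr4:102501109-102501408, plus strand, match starting at -49 from the start site: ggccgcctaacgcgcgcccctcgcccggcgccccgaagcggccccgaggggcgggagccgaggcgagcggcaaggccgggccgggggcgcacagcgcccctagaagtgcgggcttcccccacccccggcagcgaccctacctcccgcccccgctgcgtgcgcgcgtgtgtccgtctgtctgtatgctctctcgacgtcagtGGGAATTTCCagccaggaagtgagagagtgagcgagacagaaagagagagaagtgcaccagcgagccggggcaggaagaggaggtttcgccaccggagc
TNFAIP3, chr6:137867009-137867308, plus strand, matches starting at -67 and -55 from the start site: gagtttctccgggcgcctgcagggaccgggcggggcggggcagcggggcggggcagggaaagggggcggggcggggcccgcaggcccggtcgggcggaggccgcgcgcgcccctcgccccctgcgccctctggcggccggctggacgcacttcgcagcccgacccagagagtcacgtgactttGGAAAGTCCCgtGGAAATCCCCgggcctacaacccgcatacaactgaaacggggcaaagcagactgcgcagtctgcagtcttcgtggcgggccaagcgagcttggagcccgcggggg
NFKBIA, chr14:35404700-35404999, minus strand, match starting at -81 from the start site: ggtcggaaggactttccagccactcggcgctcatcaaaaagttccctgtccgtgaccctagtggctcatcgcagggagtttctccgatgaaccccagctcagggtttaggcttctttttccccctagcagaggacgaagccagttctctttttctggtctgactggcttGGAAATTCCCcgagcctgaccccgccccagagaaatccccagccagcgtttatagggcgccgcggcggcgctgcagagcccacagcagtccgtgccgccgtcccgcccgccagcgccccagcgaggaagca
BCL3, chr19:44748458-44748757, plus strand, match starting at 3, the first transcribed base being 1: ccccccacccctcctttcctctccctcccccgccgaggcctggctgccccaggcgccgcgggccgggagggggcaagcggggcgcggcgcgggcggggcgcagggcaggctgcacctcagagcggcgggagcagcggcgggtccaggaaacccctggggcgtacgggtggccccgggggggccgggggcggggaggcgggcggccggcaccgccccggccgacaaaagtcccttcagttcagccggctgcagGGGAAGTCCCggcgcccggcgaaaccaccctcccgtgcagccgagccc
NFKB1 and one window of NFKBIZ held the same 10 bases, GGGAATTTCC, and NFKBIA and REL shared GGAAATTCCC. In REL this match overlaps a second one that starts 1 base before it. NFKB2 held 3 matches in one window, of which 2 overlap, and 2 in another. Over all tested genes with a window, the median log2 fold change was -0.023 for the 1644 with a match and -0.0096 for the 8022 without. Positions of matches count from the start site of each window. For BCL3 the annotated gene begins upstream of the window shown, at chr19:44747705, so base 1 there is not the first base of the gene. A match is a description of letters and not a bound site, and no binding was measured here.

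The 7-base words that pair with the seed of each SPINK2 shRNA guide strand were looked up in the annotated transcripts, as a description. The sense targets, with the word in capitals, are shown for the 2 shRNAs of the labels.
shRNA1: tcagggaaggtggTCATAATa
shRNA2: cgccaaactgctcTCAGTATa
The shRNA1 word was in no 3′ UTR or coding sequence of the 10 genes, NFKB1 included, against 13.6% of 3′ UTRs and 4.77% of coding sequences of tested genes. The shRNA2 word was in the 3′ UTR of RELA and NFKBIZ (15.4% of tested genes) and in the coding sequence of NFKB1 and REL (9.30%). Of these genes, RELA and REL were higher, NFKB1 was lower and NFKBIZ was not called. Which libraries carry shRNA2 is not given, and an effect of either word was not tested.

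The remaining genes of the pathway came from 6 lists with 122 genes, of which 103 were tested. Of these, 29 were higher, 43 lower and 31 not called, with a median log2 fold change of -0.048. The lists were thus called lower in 41.7% of genes and higher in 28.2%, against 29.5% and 28.2% of all genes tested and 35.0% and 32.4% of those with a mean of at least 50. These shares are the background for the counts of each list below. The tested list genes had a median level of 1495 normalised reads, against 596 over all genes tested, and calls are more frequent at higher levels. Under upper-quartile size factors the counts were 36 higher and 40 lower. Over all genes tested that scaling gave 5214 higher and 3830 lower, against 4329 and 4528 in the main fit. A change over 1 on the log2 scale was called in 5 of them (BCL10, TNF, CCL2, PTX3 and ICAM1).

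In a list of 6 other genes, IkB-related or NF-kB repressing apart from IKBKG, 2 were higher and 3 lower, with a median of -0.19. Of this list 1 was higher with DESeq2 or without shNEG library b or c or shSPINK2 library a or c. IKBKG, named here after its values were seen, was not called and is also counted with the IKK complex below. NFKBID, an atypical nuclear IkB like BCL3, had 401, 393 and 389 reads in shNEG against 323, 269 and 275 in shSPINK2, and its log2 fold change was -0.46 (SE 0.080, adjusted p = 4.50e-06). NKRF, a repressor that binds NF-kB promoter elements, was lower by a similar amount (log2 fold change -0.45, SE 0.055). The third was NFKBIB, the gene of IkB beta, named here after its values were seen, at -0.32 (SE 0.048). NFKBIL1 and ANKRD42 were higher, with log2 fold changes of 0.23 and 0.30. The IkB genes did not move as a block, since NFKBIB and NFKBID fell, BCL3 rose, and NFKBIA, NFKBIE and NFKBIZ were not called.

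In the IKK complex and the kinases upstream of it, 6 of 16 genes were higher and 6 lower, with a median of 0.0091, and 3 were higher without shNEG library b. IKBKB, the catalytic subunit of the canonical route, had 3167, 3169 and 3092 reads in shNEG against 2241, 2100 and 2109 in shSPINK2. Its log2 fold change was -0.56 (SE 0.045, adjusted p = 1.15e-13), beside -0.37 for NFKB1. IKBKE, an inducible kinase of the same family, showed the largest fall of this list at -0.78 (SE 0.047, adjusted p = 2.75e-17). MAP3K8, the kinase that p105 binds and restrains, went the other way with 474, 448 and 471 reads in shNEG against 619, 663 and 667 in shSPINK2. Its log2 fold change was 0.47 (SE 0.067, adjusted p = 1.31e-07). RNF31, the catalytic subunit of the linear ubiquitin ligase, was higher by 0.35 (SE 0.053).

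Of 26 receptors and adaptors tested, 7 were higher and 10 lower, with a median of -0.044. BCL10, an adaptor that binds MALT1, had 985, 986 and 1004 reads in shNEG against 438, 437 and 413 in shSPINK2. With a log2 fold change of -1.22 (SE 0.061, adjusted p = 1.00e-19), it was the largest fall of this list. TNFRSF13C, the receptor for BAFF that feeds the non-canonical route, was also lower, at -0.90 (SE 0.15). BIRC3, a ubiquitin ligase that keeps NIK in check and is itself an NF-kB target, rose from 182, 186 and 186 reads to 280, 321 and 281, a log2 fold change of 0.65 (SE 0.092, adjusted p = 9.52e-08). TICAM1, the adaptor of Toll-like receptor signalling known as TRIF, was higher by 0.49 (SE 0.065).

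Of the 13 ubiquitin editors and other brakes tested, 4 were higher and 2 lower, with a median of 0.0064. COMMD1, which helps remove RELA from chromatin, had 554, 562 and 563 reads in shNEG against 866, 877 and 904 in shSPINK2, a log2 fold change of 0.64 (SE 0.061, adjusted p = 9.07e-12). RNF11, a component of the TNFAIP3 complex, was higher by 0.48 (SE 0.055). CYLD and TAX1BP1, named here after their values were seen, were the other two that rose, by 0.36 and 0.26. OTULIN, which cuts linear ubiquitin chains, and TNIP2, which binds TNFAIP3 and p105, were lower, with log2 fold changes of -0.37 and -0.18.

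**Figure D4:**
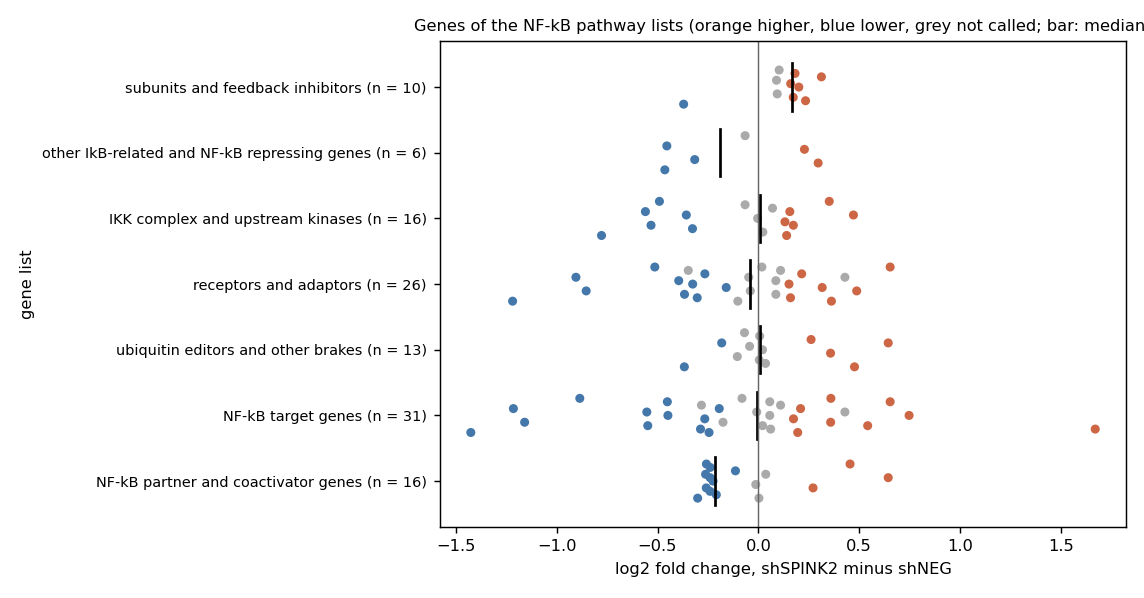
Log2 fold changes of the 10 genes (top row) and of the tested genes of 6 pathway lists, orange where called higher, blue where called lower and grey where not called, with the median as a bar. The 10 genes lie between -0.37 and 0.31, the target genes spread from -1.43 to 1.67, and the partner genes crowd near their median of -0.22.

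Known NF-kB target genes went both ways. Of 45, 31 were tested, 13 had a mean under 10, and CD44 was too abundant for its reads to be recovered. There were 9 higher and 12 lower, with a median of -0.0083. Under upper-quartile size factors there were 12 higher and 10 lower, while that scaling called 5214 of all genes tested higher and 3830 lower. TNF had 338, 338 and 334 reads in shNEG against 154, 142 and 159 in shSPINK2, a log2 fold change of -1.16 (SE 0.092, adjusted p = 7.90e-14). IL1B, with 82, 90 and 78 reads against 44, 43 and 48, fell by 0.89 on the log2 scale (SE 0.16). CXCL8, the neutrophil chemokine, fell by 0.45 (SE 0.11), and IL6 was listed at 0. PTX3 and CCL2 had the largest falls, with log2 fold changes of -1.43 (SE 0.095) and -1.21 (SE 0.21). At the other end ICAM1, the ligand of leukocyte integrins, had 101, 69 and 83 reads in shNEG against 267, 262 and 280 in shSPINK2, a log2 fold change of 1.67 (SE 0.12, adjusted p = 3.78e-15). CCL5 followed with 0.75 (SE 0.047). Thus TNF, IL1B, CXCL8, CCL2 and PTX3 were lower while CCL5 and ICAM1 were higher.

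Of the 16 partner and coactivator genes tested, 10 were lower and 3 higher, with a median of -0.22. Among all tested genes with a mean of at least 50, 35.0% were lower and 32.4% higher. The falls were small, among them that of CREBBP (log2 fold change -0.26, SE 0.046), a histone acetylase that p65 recruits. COMMD1, which is also among the brakes, and the coactivator NCOA3 were higher, by 0.64 and 0.45. The remaining one was SKP1, a subunit of the ligase that destroys IkB, named here after its values were seen, at 0.27 (SE 0.046).

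As a description, the 3 genes whose levels followed NFKB1 most closely over the 6 libraries, among 11819 with a mean of at least 50, were MGME1, LARP4B and ITGA3, each with a Pearson r of 0.999. The 6 libraries form 2 groups, and 1920 genes had an r over 0.95, and these 3 genes were lower in shSPINK2 as NFKB1 was, with log2 fold changes of -0.30, -0.20 and -0.60.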

How the data were processed

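Bulk RNA of 3 shNEG and 3 shSPINK2 FUJIOKA libraries was sequenced by the authors in paired 150-base reads, and UMIs are not described. For alignment to GRCh38 the authors used STAR, for gene counts featureCounts, and for the comparison of shSPINK2 with shNEG DESeq2. The submitters' processing notes give STAR 2.7.11, DESeq2 1.40.0 and hg38. The annotation release and the strandedness of the counting are not given in the sources used here. The deposited table holds, per gene, a signal (the mean over the 6 libraries of counts that the authors divided by size factors). It also holds the authors' log2 fold change, its standard error, which is a score of that fit, a Wald statistic, p-values and a status. None of these comparison columns is printed or compared here.

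Reads per library were recovered as the 6 whole numbers whose sum over the size factors gives the deposited mean. The size factors came from the 6 values shared by genes with 1 read in 1 library. The sign of the authors' log2 fold change of such genes placed each library in its group. For all but the lowest genes, the authors' log2 fold change and its standard error also set where whole-number solutions were searched for. They chose between solutions that gave the mean, and a solution was in general kept only if it closely reproduced that fold change. Group placement thus rests on the authors' own comparison, and the recovered reads are not independent of it. A single solution was found for all 16089 genes with a mean above 0 and under 10 and for 15357 of 15465 genes (99.3%) with a mean of 10 to under 10000. The 666 genes with a mean of 10000 or more were not recovered. The median-of-ratios factors of the recovered reads differed from the size factors by 0.12% or less. The search was itself centred on reads expected from these size factors, so this closeness is no independent check of the recovery. The recovery was tested on simulated data.

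Reads divided by size factors were fitted for the 15357 genes as log2(value + 1) with limma 3.58.1 (trend, R 4.3.3), and p-values were adjusted by the Benjamini-Hochberg method over all of them, with a call at an adjusted p under 0.05. The fit was tested on simulated reads in which 200 of 15357 genes were changed, far fewer than were called in the data. Of 50 genes changed 1.15-fold it called 21, and of 50 changed 1.3-fold it called 32. Changes of the size seen in these genes can thus be missed. Pairs of libraries within a group differed by more than counting error, so none is a copy. The chi-square per gene was 1.68 to 2.27 for shNEG pairs and 3.90 to 6.07 for shSPINK2 pairs. The shSPINK2 libraries thus varied more among themselves, and the fit used a single variance per gene for both groups. Alternatives were edgeR 4.0.16, DESeq2 1.42.0, limma-voom, other size factors, pseudocounts and minimum means, and leaving out each library. Positions and exon lengths are from GENCODE release 44, which matched 99.1% of tested genes by ID, and promoters from RefSeq.

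The 10 genes, the lists and the tests were chosen with earlier results of these data known. Genes named are SPINK2, the 10 genes, up to 2 genes per list and direction with the largest called change, TNF, IL1B, IL6, CXCL8 and ICAM1, the cell type markers and the 3 genes most like the one with the largest change; others are said to be named after their values were seen. Some genes that this rule names are not reported here.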

Additional observations from a re-analysis of the deposited data

How the results depend on the processing

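No paired analysis was possible because the recovered libraries carry a group but no replicate number. Over 14 alternative settings (8 other fits and 6 with a library left out) no log2 fold change of the 10 genes or of SPINK2 turned its direction, SPINK2 having too low a mean to enter the fit with a minimum mean of 50. The number of the 10 genes called higher was 6, and it was 3 with DESeq2 and at an adjusted p under 0.01. Over all 15357 genes tested the number was 4329, and 3829 and 3515 in these settings. With a library left out it ran from 3 to 6 for the 10 genes and from 3883 to 4197 for all genes tested. Of the 10 genes, the number called lower was 1 throughout. With DESeq2, the log2 fold changes of REL, RELB and BCL3 were 0.17, 0.18 and 0.32 and were no longer called, and REL at 0.16 was not called without a minimum mean (adjusted p = 0.103). Under upper-quartile size factors NFKBIA and NFKBIE, at 0.15 and 0.16, were called. That scaling called 5214 genes higher and 3830 lower, against 4329 and 4528, and moved the median of all genes by 0.060. edgeR's quasi-likelihood test on the recovered reads called 4369 higher and 4533 lower.

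With a library left out, the log2 fold changes ran from 0.088 to 0.22 for REL, from 0.15 to 0.21 for RELB, from 0.28 to 0.35 for BCL3, from 0.036 to 0.14 for NFKBIE, from 0.061 to 0.13 for NFKBIA, from 0.011 to 0.14 for NFKBIZ, from 0.17 to 0.28 for NFKB2, from 0.15 to 0.21 for RELA, from 0.18 to 0.22 for TNFAIP3, from -0.41 to -0.33 for NFKB1 and from -2.97 to -2.73 for SPINK2. The causes of these differences were not tested. BCL3 and NFKBIZ had the fewest reads of the 10 genes, 97 to 133 a library.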
